A study of Homo sapiens with 8 samples.

Results

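The 37 genes carried by the human mitochondrial genome were followed in 2 lung cancer cell lines treated with ACBI1. They were taken by symbol, as every gene row whose name starts with MT-, and make up 37 of 61228 gene rows: 13 messenger RNAs, 2 ribosomal RNAs and 22 transfer RNAs. Of these, 27 had enough counts to be tested (13 messenger, 2 ribosomal and 12 transfer RNAs), and the other 10, transfer RNAs, had no count in any of the 8 libraries. H1975 and HCC44 are established human lung cancer lines, both labelled WT for genotype. Each received DMSO, the solvent, or ACBI1 for 96 hours, with 2 replicates in each of the 4 groups. The dose is labelled 1 mM, far above what is usual for such compounds, so its unit is uncertain. ACBI1 is a small molecule that directs the chromatin remodelling ATPases SMARCA2 and SMARCA4 to degradation as proteins, so an RNA level does not check that the treatment worked. No label says that replicates came from separate cultures, so the p-values measure the spread between these libraries, which may be technical.

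Mitochondrial DNA is a small circular genome present in many copies per cell. Both of its strands are transcribed as long precursors that run through nearly the whole circle. In most places a transfer RNA sits between the longer genes, and its excision releases them. The messenger RNAs encode core subunits of respiratory complexes I, III and IV and of the ATP synthase, and the ribosomal and transfer RNAs serve their translation inside the organelle. Every enzyme that copies, transcribes, cuts and stabilises this genome and its RNA is encoded in the nucleus.

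The libraries held 62467286 to 70455517 counts assigned to genes. All 5 epithelial markers were detected in every library, with summed levels of 2151 to 2269 CPM (counts scaled to library size) in H1975 with DMSO and 517 to 521 CPM in HCC44 with DMSO. With ACBI1 these sums were 1034 to 1204 CPM in H1975 and 448 to 536 CPM in HCC44. CDH1, which encodes E-cadherin, was at 4.10 to 10.3 CPM in HCC44. Among markers of other cells, CD3E and DCN were at 0 in every library, PTPRC reached at most 0.048 CPM and COL3A1 at most 0.0629 CPM. CD14 made up nearly all of the blood cell list, whose sum was 2.06 to 2.59 CPM with DMSO and 1.20 to 1.26 CPM with ACBI1 in H1975, and 3.34 to 3.43 and 0.768 to 1.40 CPM in HCC44; CD14 fell in both lines (edgeR adjusted p = 0.0411 and 0.0015). The 3 endothelial markers summed to 0.439 to 0.622 CPM in H1975, where VWF rose (edgeR adjusted p = 0.0126), and to 3.322 to 4.005 CPM with DMSO and 1.04 to 1.12 CPM with ACBI1 in HCC44, where CDH5 and PECAM1 fell (edgeR adjusted p = 6.18e-05 and 0.0011). COL1A1 alone made up nearly all of the fibroblast list, whose sum was 44.4 to 68.9 CPM with DMSO and 23.0 to 28.9 CPM with ACBI1 in H1975, and 71.1 to 89.5 and 200.3 to 403 CPM in HCC44. The part of these markers in the mitochondrial results was not tested.

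Mitochondrially encoded RNA took 5.68 to 9.02% of the counts assigned to genes in a library. In H1975 the share was 9.02 and 6.06% with DMSO (7.54 ± 2.09%, SD, n = 2) and 7.21 and 5.68% with ACBI1 (6.45 ± 1.09%). These groups overlap, since the second DMSO library lies between the ACBI1 libraries. In HCC44 the share was 7.13 and 6.72% with DMSO (6.92 ± 0.286%) and 7.54 and 7.17% with ACBI1 (7.36 ± 0.259%), and both ACBI1 libraries lie above both DMSO libraries. With 2 libraries against 2, an exact permutation test cannot go below a two-sided p of 0.333, so shares are given with no test. Messenger RNAs made up most of it, with 4.49 to 7.46% of gene counts, the ribosomal RNAs held 1.19 to 1.56%, and the transfer RNAs held 0.00101 to 0.00271%. Of the 10 genes with the most counts in a library, 6 to 8 were mitochondrially encoded.

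**Figure D1:**
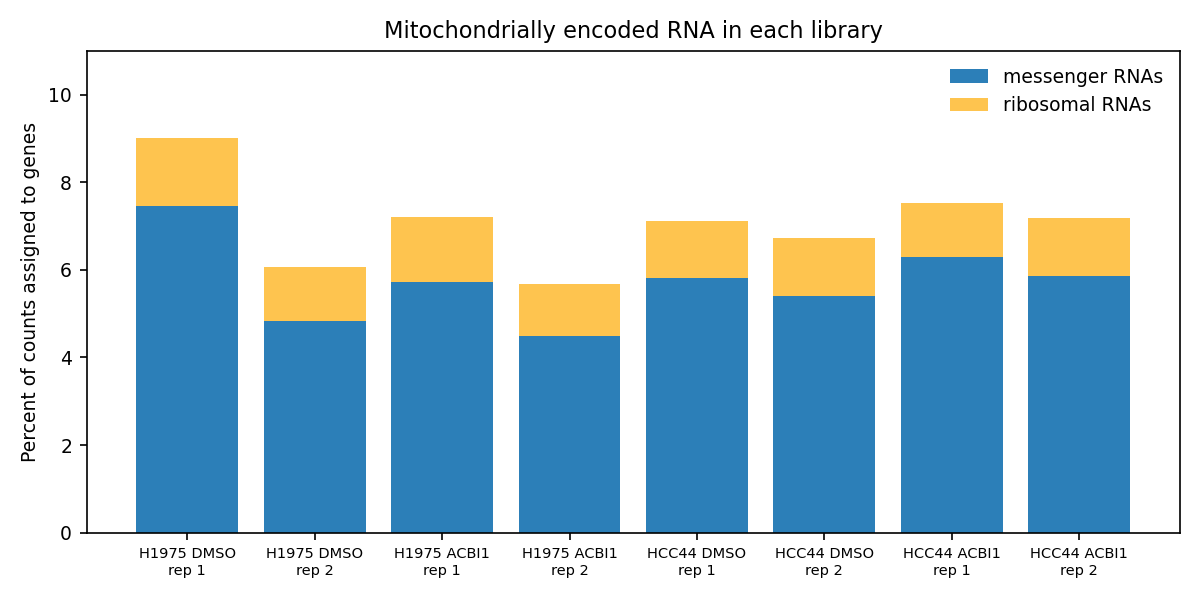
Percent of counts assigned to genes (vertical axis) that came from mitochondrially encoded messenger RNAs and ribosomal RNAs, stacked for each of the 8 libraries; the transfer RNAs are too few to be seen. The first H1975 DMSO library stands highest, with 7.46% from messenger RNAs, and the 4 HCC44 libraries lie between 5.41 and 6.30%.

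The H1975 replicates were far apart in these genes. Over the 15 messenger and ribosomal RNAs, the higher CPM of the H1975 DMSO replicates exceeded the lower by a median of 1.499-fold (1.04 to 1.82). Replicate 1 was the higher for 15 of 15. In H1975 with ACBI1 the median was 1.26-fold (1.03 to 1.84), again with replicate 1 higher for 15 of 15. In HCC44 the medians were 1.04-fold with DMSO and 1.08-fold with ACBI1, and replicate 1 was the higher for 13 and 12 of 15. RN7SL1, the short non-polyadenylated RNA of the signal recognition particle, was at 16.9 and 39.4 CPM in H1975 with DMSO and at 9.32 and 47.0 CPM with ACBI1. It was thus lower in the H1975 replicates where mitochondrial RNA was higher. In HCC44 it was at 28.1 and 18.9 CPM with DMSO and at 23.4 and 21.5 CPM with ACBI1, higher in the replicates with the larger mitochondrial share. Of the 7 short RNAs of this kind looked up, RN7SK, RN7SL2, RPPH1 and SCARNA2 were at 0 in every library. RMRP was at 0.73 and 1.35 CPM with DMSO, then 0.465 and 1.16 CPM with ACBI1 in H1975. In HCC44 it was at 0.779 and 0.658, then 0.432 and 0.582 CPM. SNORD3A was at 2.59 and 2.69, then 2.18 and 2.445 CPM in H1975, and 0.763 and 0.439, then 0.528 and 0.661 CPM in HCC44. The part of these RNAs in the spread was not tested.

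Among the 13 messenger RNAs, levels per length ran over a wide range. MT-CO2, a catalytic core subunit of cytochrome c oxidase (complex IV), stood highest in H1975 with DMSO at 9237 ± 2336 CPM per kb of annotated length (SD, n = 2) and in HCC44 with DMSO at 10543 ± 311 CPM per kb. In H1975 with DMSO it was followed by MT-CO3 (8664 ± 2190 CPM per kb), and MT-CO1, MT-ND4 and the ribosomal RNA MT-RNR2 came next. The gaps between these 5 genes in that group are smaller than the spread of its replicates. MT-ND6, a complex I subunit and the one messenger RNA encoded on the minus strand, stood lowest of the messenger and ribosomal RNAs in every group, with 180.3 ± 74.1 CPM per kb in H1975 with DMSO and 183 ± 4.03 CPM per kb in HCC44 with DMSO. MT-ND5, its neighbour on the plus strand, was at 2174 and 1710 CPM per kb in the same groups, and the ratio of MT-ND6 to MT-ND5 per kb was 0.0595 to 0.120 over the 8 libraries.

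**Figure D2:**
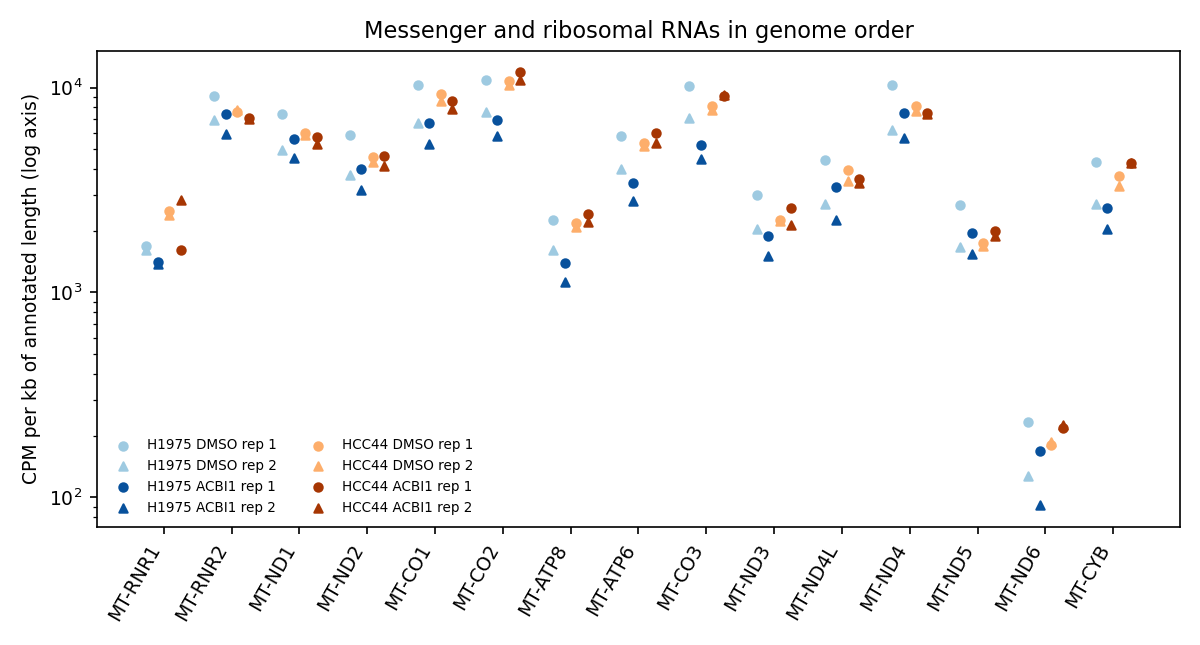
CPM per kb of annotated length (vertical log axis) for the 2 ribosomal and 13 messenger RNAs in genome order, 1 point per library. MT-ND6 lies far below its neighbours in every library, and the light blue H1975 DMSO points are far apart for most genes, with the dark blue H1975 ACBI1 points below their mean for each gene.

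Adjoining pairs of messenger RNAs share bases. MT-ATP8, a small ATP synthase subunit (chrM:8366-8572, plus strand, GRCh38), overlaps MT-ATP6 (chrM:8527-9207), the channel-forming subunit, and MT-ND4L (chrM:10470-10766) overlaps MT-ND4 (chrM:10760-12137), both of complex I. The MT-ATP8 gene and the last 60 bases of MT-ND4L are shown from the GENCODE release 29 transcripts, because counts on the shared bases, in capitals, cannot be assigned to 1 gene of the pair; the overlaps are 46 and 7 bases.
MT-ATP8: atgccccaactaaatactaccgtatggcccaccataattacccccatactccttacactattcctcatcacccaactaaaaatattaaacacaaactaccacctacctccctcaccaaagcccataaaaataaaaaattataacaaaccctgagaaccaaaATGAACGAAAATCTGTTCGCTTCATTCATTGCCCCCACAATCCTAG
MT-ND4L: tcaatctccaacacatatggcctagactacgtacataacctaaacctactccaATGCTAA
Within a library the counts of these pairs kept close ratios. MT-ATP8 had 0.118 to 0.125 times the counts of MT-ATP6 in the 8 libraries, and MT-ND4L had 0.0856 to 0.104 times those of MT-ND4.

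A group of mitochondrial messenger RNAs was lower with ACBI1 in H1975. Of the 27 genes tested, 6 fell and 0 rose (adjusted p under 0.05, edgeR's quasi-likelihood test, Benjamini-Hochberg adjustment over 21307 genes). Over all genes tested, 31.3% were called in this comparison, 16.7% falling and 14.6% rising. As a share of those tested, fewer mitochondrial genes were thus called in this fit than over all genes, but a larger share of them fell. Neither relation held under every setting. With a replicate block 17 of 27 were called (42.7% of all genes), with no filter 12 (20%) and with library totals 1 (35.2%). Most values lay on the same side: 13 of 13 messenger RNAs, both ribosomal RNAs and 11 of 12 transfer RNAs had a log2 fold change below 0. These genes share precursors and libraries, so their signs are not independent. The median over the 27 was -0.47, against -0.01 over all genes tested. The count rests on single libraries: 1 gene was called without DMSO replicate 1 (19.5% of all genes) or without ACBI1 replicate 2 (16.5%), 7 without ACBI1 replicate 1 (20.5%) and 13 without DMSO replicate 2 (20.5%). Without DMSO replicate 1, the median over the 27 was -0.05, and 10 of the 15 messenger and ribosomal RNAs were below 0.

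MT-CO3 (chrM:9207-9990, plus strand), the third core subunit of complex IV, changed the most among the messenger RNAs. It stood at 8007 and 5578 CPM with DMSO and at 4088 and 3503 CPM with ACBI1. Both ACBI1 libraries were below both DMSO libraries, and the gap between the nearest libraries of the groups was larger than that between the ACBI1 replicates but smaller than that between the DMSO replicates. The log2 fold change was -0.84 ± 0.149 (SE, edgeR adjusted p = 0.00212), and it was called under each of the 18 alternatives run, which left out each library in turn and changed the scaling, filter and tool, with values of -1.03 to -0.56.

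The ATP synthase genes moved alike. MT-ATP6 stood at 3958 and 2716 CPM with DMSO and at 2320 and 1908 CPM with ACBI1, a log2 fold change of -0.66 ± 0.164 (edgeR adjusted p = 0.0136). MT-ATP8 stood at 469 and 333 CPM with DMSO and at 288 and 233 CPM with ACBI1, a log2 fold change of -0.62 ± 0.156 (edgeR adjusted p = 0.0135). Neither gene's groups overlap. The genes share bases, as the capitals in the sequence of MT-ATP8 show. They also share a precursor and the same libraries, and so are not independent measurements. Both calls were lost without DMSO replicate 1, without ACBI1 replicate 2 and with library totals in place of scaling factors (edgeR adjusted p up to 0.0853).

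Of the other complex IV genes, MT-CO2 fell from 7448 and 5188 CPM to 4769 and 3949 CPM (log2 fold change -0.54 ± 0.156, edgeR adjusted p = 0.0252). The MT-CO2 call was lost with upper-quartile factors, library totals and each line alone, and without DMSO replicate 1 or ACBI1 replicate 2. Its values ran from -0.72 to -0.26 over the alternatives. MT-CO1, the largest catalytic subunit, was at 15825 and 10356 CPM with DMSO and at 10398 and 8168 CPM with ACBI1, with an edgeR adjusted p of 0.0744. The MT-CO1 groups overlap, with the second DMSO library just below the first ACBI1 library. MT-CYB, the complex III subunit cytochrome b, was at 4944 and 3069 CPM with DMSO and at 2951 and 2318 CPM with ACBI1, with no overlap, a log2 fold change of -0.60 and an edgeR adjusted p of 0.0558.

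In complex I, which takes electrons from NADH, 1 of 7 genes passed the test. MT-ND3 fell from 1034 and 707 CPM to 651 and 520 CPM (log2 fold change -0.57 ± 0.178, edgeR adjusted p = 0.0381), a call kept under 9 of the 18 alternatives. The other 6 had log2 fold changes of -0.47 (MT-ND6) to -0.28 (MT-ND1), with edgeR adjusted p from 0.147 to 0.336. MT-ND4, the most abundant of them per kb, was at 14159 and 8512 CPM with DMSO and at 10395 and 7858 CPM with ACBI1, so its groups overlap. Along the genome, the 5 messenger RNAs that passed, MT-CO2, MT-ATP8, MT-ATP6, MT-CO3 and MT-ND3, are neighbours, a run noticed after the values were seen. The other messenger and ribosomal RNAs had values closer to 0, except MT-CYB.

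**Figure D3:**
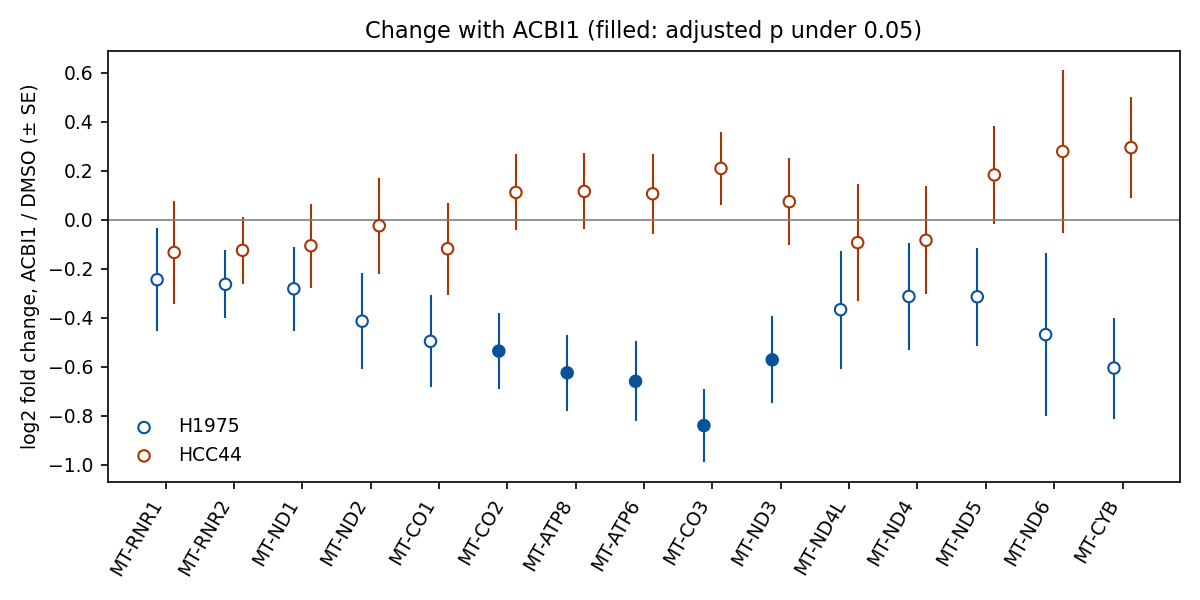
Log2 fold change of ACBI1 against DMSO (vertical axis, error bars ± SE) for the 15 messenger and ribosomal RNAs in genome order, with H1975 in blue and HCC44 in orange; filled points passed the test. In H1975 all 15 points lie below 0, though 10 of 15 do without DMSO replicate 1, and the lowest is MT-CO3 at -0.84; in HCC44 no point is filled and MT-CYB is the highest at 0.29.

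In HCC44 no mitochondrial gene passed the test with ACBI1. Of 27 tested, 0 were called by edgeR and 0 by DESeq2, and 1 had an unadjusted p under 0.05. Over all genes, edgeR called 34.9% (17.5% risen and 17.4% fallen). Other edgeR fits did call some: 2 with HCC44 fitted alone (38% of all genes) and 4 with a replicate block (44.7%). MT-CYB was called in both of these fits, and MT-CO3 with the block. The median log2 fold change was 0.03 over the 27 and 0.01 over all genes tested. Of the 13 messenger RNAs, 8 had values above 0 and 5 below, from -0.12 for MT-CO1 to 0.29 for MT-CYB. MT-CYB was at 4205 and 3757 CPM with DMSO and at 4881 and 4880 CPM with ACBI1 (edgeR adjusted p = 0.315). MT-CO3 was at 6355 and 6097 CPM with DMSO and at 7163 and 7234 CPM with ACBI1 (log2 fold change 0.21, edgeR adjusted p = 0.312). The groups of these genes do not overlap, but over all genes tested 34.1% had both ACBI1 libraries higher and 32.7% both lower in HCC44. In all, 10 of the 27 had both ACBI1 libraries higher, among them MT-CO2, MT-ATP8, MT-ND5 and MT-ND6, and 5 had both lower, among them MT-ND1, MT-ND4 and MT-RNR2. In H1975, 0 had both higher and 8 had both lower (MT-ATP6, MT-ATP8, MT-CO2, MT-CO3, MT-CYB, MT-ND3, MT-RNR1 and MT-TF), against 33.1% and 34.2% of all genes.

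The response of 3 messenger RNAs differed between the lines, each more positive in HCC44. Over all genes, 18.6% were called in the test of the difference, HCC44 minus H1975, with 10.2% more positive and 8.4% more negative. The comparison uses the libraries of both line-wise comparisons and is no separate evidence for them. For MT-CO3 the difference in log2 fold change was 1.05 ± 0.21 (SE, edgeR adjusted p = 0.00744), called under all 17 alternatives run, from 0.77 to 1.24. For MT-ATP6 it was 0.76 ± 0.232 (edgeR adjusted p = 0.047) and for MT-ATP8 0.74 ± 0.219 (edgeR adjusted p = 0.0432), each called under 7 of 17. The 13 messenger RNAs, which are not independent measurements, had differences above 0 in 13 of 13 cases. The median was 0.51 over the 27 genes against 0.04 over all genes. Without H1975 DMSO replicate 1, that median over the 27 was 0.14, MT-CO3 alone was called, and 4 of the 15 messenger and ribosomal RNAs were below 0.

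Shares within the messenger RNA pool are free of the scaling between libraries by construction. Most of the 13 had no overlap between DMSO and ACBI1 libraries in these shares. With ACBI1, 4 were higher and 6 lower in H1975, and 7 were higher and 5 lower in HCC44. In CPM, 33.1% of all genes were higher and 34.2% lower without overlap in H1975, and 34.1% and 32.7% in HCC44. The 13 shares are parts of 1 total, so a lower share of some genes goes with a higher share of others. As a share of the counts of the 13 messenger RNAs, MT-CO3 went from 10.6 and 11.4% with DMSO to 8.17 and 8.84% with ACBI1 in H1975, and from 10.0 and 10.2% to 11.1 and 11.9% in HCC44. Its groups are apart in both lines, in opposite directions. MT-CYB did likewise, from 6.56 and 6.27% to 5.90 and 5.85% in H1975 and from 6.64 and 6.28% to 7.58 and 8.05% in HCC44. MT-ND1, the membrane-arm subunit next to the ribosomal RNA genes, went the other way, from 9.42 and 9.67% to 10.77 and 10.97% in H1975 and from 9.05 and 9.35% to 8.48 and 8.34% in HCC44. MT-ND4 held 18.8 and 17.4% with DMSO and 20.8 and 19.8% with ACBI1 in H1975, and 17.7 and 17.7% and then 16.1 and 16.8% in HCC44. Within both H1975 groups, the replicate with more mitochondrial RNA had the lower MT-CO3 share and the higher MT-ND4 share, and the part of that amount in the shares was not tested. MT-ND5 was higher with ACBI1 in both lines, from 6.44 and 6.18% to 7.08 and 7.05% in H1975 and from 4.97 and 5.11% to 5.64 and 5.61% in HCC44.

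Summed by complex, the complex I genes held 46.04 and 44.37% of messenger RNA counts in H1975 with DMSO and 50.4 and 49.3% with ACBI1. In HCC44 they held 42.5 and 42.9%, then 40.9 and 41.0%. Complex IV genes went from 41.5 and 43.1% to 38.5 and 39.4% in H1975, and were at 44.4 and 44.2% with DMSO and 44.4 and 44.2% with ACBI1 in HCC44, where a higher MT-CO3 share stood beside a lower MT-CO1 share. That share of MT-CO1 was 22.7 and 22.2% with DMSO and 20.68 and 19.99% with ACBI1 in HCC44, and 20.6 to 21.1% in the 4 H1975 libraries. The ATP synthase genes went from 5.88 and 6.23% to 5.21 and 5.40% in H1975 and from 6.46 and 6.62% to 7.10 and 6.75% in HCC44. As with the shares of all gene counts, the smallest two-sided exact p for 2 against 2 is 0.333, and no test was made.

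**Figure D4:**
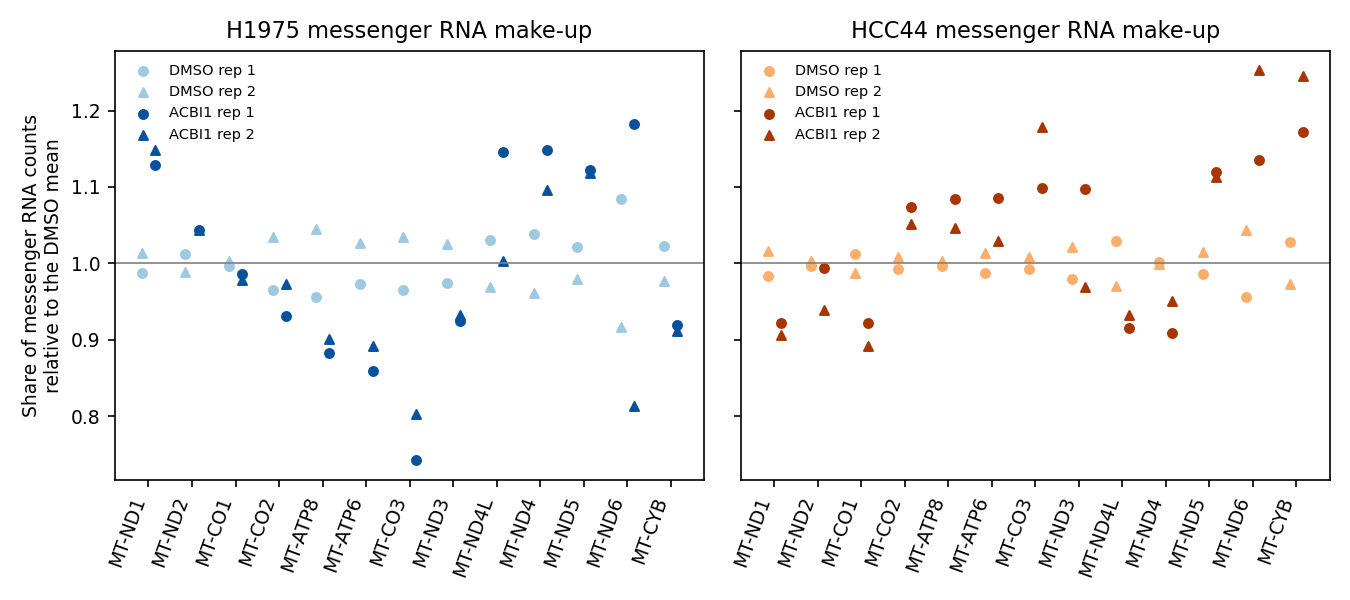
Share of messenger RNA counts held by each gene, divided by the mean share with DMSO in that line (vertical axis), in genome order, for H1975 on the left and HCC44 on the right, 1 point per library. The dark H1975 points are lowest at MT-CO3 (8.17 and 8.84% of messenger RNA counts), where the dark HCC44 points are above 1 (11.1 and 11.9%).

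MT-CO3 and MT-ATP6 adjoin on the genome with no transfer RNA between them, and their count ratio was 2.02 and 2.05 with DMSO and 1.76 and 1.84 with ACBI1 in H1975. In HCC44 the ratio was 1.75 and 1.73, then 1.76 and 1.99. The ratio of MT-CO3 to MT-ND4 was 0.565 and 0.655 with DMSO and 0.393 and 0.446 with ACBI1 in H1975, and 0.566 and 0.576, then 0.691 and 0.708, in HCC44. The MT-CO3 to MT-ND4 ratio thus moved in opposite directions in the 2 lines, with no overlap between groups in either line. It restates the moves of the MT-CO3 and MT-ND4 shares given above and is no separate evidence.

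The ribosomal RNAs did not pass the test with ACBI1 in either line. MT-RNR2, the large-subunit RNA (chrM:1671-3229), was at 14125 and 10810 CPM with DMSO and 11577 and 9198 CPM with ACBI1 in H1975 (log2 fold change -0.26, edgeR adjusted p = 0.176), and at 11781 and 12145, then 11058 and 10887 CPM in HCC44. MT-RNR1, the small-subunit RNA (chrM:648-1601), was at 1611 and 1542 CPM with DMSO and 1351 and 1310 CPM with ACBI1 in H1975 (log2 fold change -0.24, edgeR adjusted p = 0.424). In HCC44 it was at 2379 and 2271 CPM with DMSO, but at 1545 and 2694 CPM in the ACBI1 replicates, the widest gap among the 15 messenger and ribosomal RNAs in that group. Without ACBI1 replicate 2, the MT-RNR1 log2 fold change in HCC44 was -0.59, while replicate 2 itself lay above both DMSO libraries. Both RNAs come from 1 short stretch of the precursor, and the counts of MT-RNR1 were 0.114 to 0.247 times those of MT-RNR2 (0.186 to 0.404 per kb). Whether ribosomal RNA was depleted or poly(A) RNA was selected is not given in the sources used here.

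Between the untreated lines, 4 mitochondrial genes differed. HCC44 with DMSO was higher than H1975 with DMSO in MT-RNR1 (log2 difference 0.56 ± 0.212, edgeR adjusted p = 0.0434), MT-TI (1.48 ± 0.392, 0.00616) and MT-TT (1.39 ± 0.232, 0.000265), and lower in MT-TF (-1.14 ± 0.352, 0.0134). No messenger RNA passed, while 67.9% of all genes did, 31.6% higher and 36.4% lower in HCC44. The median over the 27 genes was -0.03 and that over all genes -0.08. Without H1975 DMSO replicate 1, the median over the 27 was 0.39, and 0 of the 15 messenger and ribosomal RNAs were below 0. Without H1975 DMSO replicate 2, it was -0.28, and 13 of 15 were below 0. For MT-RNR1 the call held under 8 of 17 alternatives. Both HCC44 libraries lay above both H1975 libraries for MT-RNR1, MT-TI, MT-TM and MT-TT and below them for MT-TF and MT-TY, against 39.9% of all genes higher and 45% lower.

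Transfer RNAs gave few counts, 634 to 1729 per library over all 22 genes. The 12 with counts had 66 (MT-TY) to 2923 (MT-TT) over the 8 libraries, and 10 had none: MT-TC, MT-TG, MT-TH, MT-TK, MT-TL1, MT-TL2, MT-TN, MT-TR, MT-TS2 and MT-TV. A count of 0 allows up to 0.0399 to 0.0480 CPM in a library (3 counts, counting error only). Each zero gene has a same-strand gene on either side, in 10 of 10 cases, and no gene with counts does, in 12 of 12. The 10 zero genes have 59 to 105 bases between their same-strand neighbours. The 8 counted genes that are bounded on both sides have 138 to 8257 bases, and the other 4 (MT-TF, MT-TT, MT-TP and MT-TQ) have no further gene on their strand on one side before the control region. Measured between neighbours on either strand, the room was 59 to 105 bases for the zero genes and 66 to 77 for the 10 bounded genes with counts, so it does not part them. This arrangement was noticed after the counts were seen.

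Of these genes, 6 are shown from GENCODE release 29, since they carry the contrast between counted and zero genes; the tRNAs are 59 to 75 bases long. MT-TT (chrM:15888-15953, plus strand) and MT-TP (chrM:15956-16023, minus strand) have many counts and no further same-strand gene before the control region. MT-TI (chrM:4263-4331, plus) ends on bases that face MT-TQ on the other strand, in capitals. MT-TD (chrM:7518-7585, plus) is counted and follows a minus-strand gene. MT-TK (chrM:8295-8364, plus) and MT-TN (chrM:5657-5729, minus) lie between same-strand genes and were at 0.
MT-TT: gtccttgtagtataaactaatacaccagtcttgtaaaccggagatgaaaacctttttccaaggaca
MT-TP: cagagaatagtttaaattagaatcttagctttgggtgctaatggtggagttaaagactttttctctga
MT-TI: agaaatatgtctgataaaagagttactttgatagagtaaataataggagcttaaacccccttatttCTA
MT-TD: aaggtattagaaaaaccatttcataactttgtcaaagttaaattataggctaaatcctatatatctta
MT-TK: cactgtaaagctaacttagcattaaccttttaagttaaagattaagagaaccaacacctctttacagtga
MT-TN: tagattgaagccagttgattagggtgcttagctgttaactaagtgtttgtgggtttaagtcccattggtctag
Nested genes were counted over the whole annotation as well. Of 211 genes of GENCODE release 29 whose exons lie wholly inside exons of the opposite strand, 99 (46.9%) had counts. Of 529 whose exons lie wholly inside exons of the same strand, 12 (2.27%) had counts. These sets were not matched for expression. The counter's strand setting and overlap rule are not given in the sources used here, and htseq-count by default leaves out a read that touches 2 genes.

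**Figure D5:**
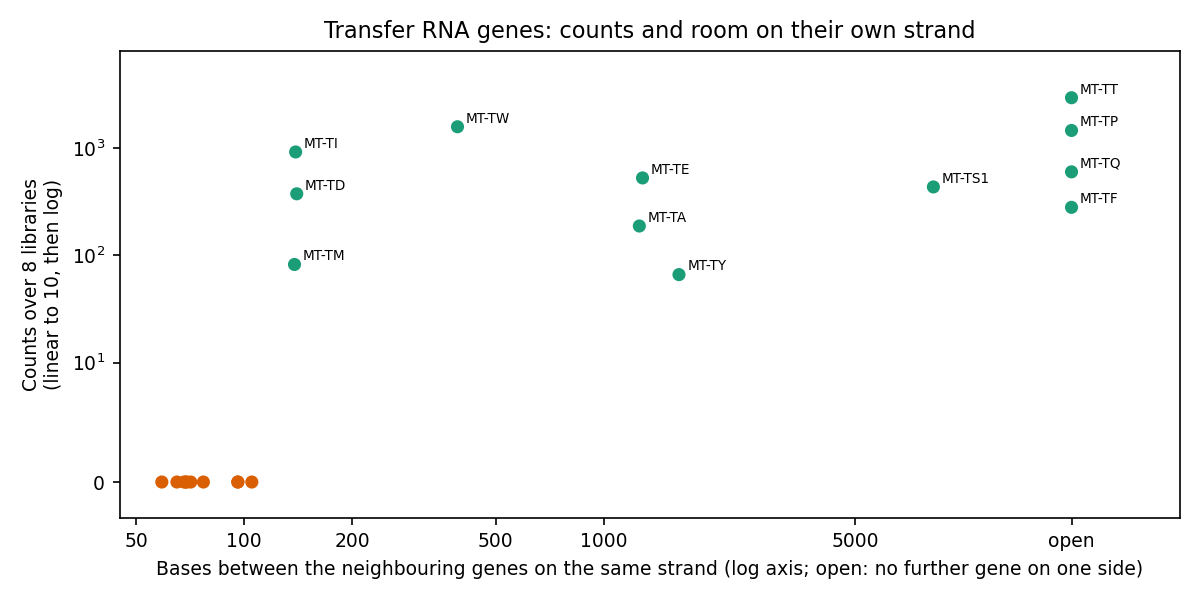
Counts summed over the 8 libraries (vertical axis, linear to 10 and then log) against the bases between the neighbouring genes on the same strand (horizontal log axis) for the 22 transfer RNA genes; open marks genes with no further gene on their strand on one side. The 10 genes with 0 counts sit at 59 to 105 bases and those with counts at 138 bases and above or open.

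MT-TT, the threonine transfer RNA, was at 3.17 and 2.37 CPM in H1975 with DMSO, 2.53 and 2.30 CPM with ACBI1, 8.23 and 6.31 CPM in HCC44 with DMSO and 11.8 and 8.62 CPM with ACBI1. The 4 HCC44 libraries lie above the 4 H1975 libraries, and the change with ACBI1 in HCC44 did not pass (log2 fold change 0.49, edgeR adjusted p = 0.113). MT-TI, the isoleucine transfer RNA, was at 1.51 and 0.651 CPM in H1975 with DMSO and 2.42 and 3.57 CPM in HCC44 with DMSO. Its call between the lines was lost without HCC44 DMSO replicate 2 (edgeR adjusted p = 0.0551). MT-TF, the phenylalanine transfer RNA at the start of the plus-strand genes (chrM:577-647), fell with ACBI1 in H1975 from 0.885 and 0.828 CPM to 0.479 and 0.368 CPM. That change (log2 fold change -1.01 ± 0.343, edgeR adjusted p = 0.0445) rests on 26 to 57 counts per library and was called under 7 of 17 alternatives. In HCC44 MT-TF was at 0.493 and 0.282 CPM, then 0.464 and 0.409 CPM. MT-TW, the tryptophan transfer RNA, had replicates as far apart as 6.17 and 1.99 CPM in HCC44 with DMSO, and MT-TP, the proline transfer RNA, was at 4.301 and 2.041 CPM in H1975 with DMSO.

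Reads from nuclear copies of mitochondrial DNA cannot always be told apart from those of the genes themselves. The tables name 404 such copies, of which 47 had any count and 4 reached 100 in a library. MTATP6P1, a copy of MT-ATP6, had 21043 to 41566 counts per library, 15.02 to 16.56% of those of MT-ATP6 in each of the 8. MTND2P28 held 2.83 to 3.20% of the counts of MT-ND2, MTCO1P12 0.296 to 0.359% of those of MT-CO1 and MTND1P23 0.0252 to 0.0432% of those of MT-ND1. How many reads were misplaced between a gene and its copy was not tested. The levels of these 4 genes are thus uncertain by an unknown amount, for which these percentages set no bound.

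Nuclear genes that serve this genome were counted by list, to be read against the 14.6% of all genes that rose and 16.7% that fell in H1975, and the 17.5% and 17.4% in HCC44. Of 9 transcription genes, 4 rose and 0 fell in H1975 and 3 rose and 1 fell in HCC44, with median log2 fold changes of 0.13 and -0.00. POLRMT, the mitochondrial RNA polymerase, singled out after its values were seen, rose from 157 and 149.5 CPM to 224 and 209 CPM in H1975 and from 145 and 142 CPM to 187 and 202 CPM in HCC44. Its log2 fold changes were 0.49 ± 0.0848 (edgeR adjusted p = 0.0016) and 0.44 ± 0.0848 (0.00239). TFB1M, which methylates the small ribosomal RNA, rose in H1975 from 9.61 ± 0.793 to 14.3 ± 1.89 CPM (SD, n = 2, log2 fold change 0.57, edgeR adjusted p = 0.0163). MTERF2, of the termination factor family, rose in HCC44 (0.64, 0.0103) and in H1975 (0.49, 0.0395), and MTERF1 fell in HCC44 (-0.35, 0.0466).

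Of 18 genes of RNA processing and stability, 5 fell in H1975 and 5 in HCC44, with 0 rising and medians of -0.09 in each line. The share called is below that over all genes (31.3% and 34.9%), and the share falling is above it (16.7% and 17.4%). In the test of the difference, 1 of the 18 was more positive and 1 more negative in HCC44, against 10.2% and 8.4% of all genes. GRSF1, an RNA-binding protein of the mitochondrial RNA granules, fell in H1975 from 143 ± 8.96 to 99.2 ± 6.18 CPM (SD, n = 2, log2 fold change -0.53, edgeR adjusted p = 0.00292). In HCC44 its value was -0.22 (edgeR adjusted p = 0.12), and the difference between the lines did not pass (adjusted p = 0.161). FASTKD5, which is needed to mature messenger RNA ends that no transfer RNA flanks, fell in HCC44 from 48.2 ± 2.04 to 33.0 ± 0.575 CPM (-0.55, edgeR adjusted p = 0.00129) and in H1975 (-0.36, edgeR adjusted p = 0.0168).

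Of 13 genes that copy and keep mitochondrial DNA, 6 rose and 0 fell in H1975 and 5 rose and 1 fell in HCC44, with medians of 0.29 and 0.21. Over all genes, 14.6% rose in H1975 and 17.5% in HCC44. DNA2, a nuclease and helicase of nucleus and mitochondrion, rose in HCC44 from 5.77 ± 0.969 to 12.7 ± 0.982 CPM (log2 fold change 1.14, edgeR adjusted p = 0.000954) and in H1975 (0.54, 0.043). TOP1MT, the mitochondrial topoisomerase, rose in H1975 (0.58, edgeR adjusted p = 0.0156) and in HCC44 (0.65, 0.00817). DGUOK, which salvages purine deoxynucleosides, fell in HCC44 from 88.3 ± 4.72 to 67.6 ± 4.79 CPM (-0.38, edgeR adjusted p = 0.00691), and its difference between the lines passed (-0.55, 0.0136). The call in HCC44 and that of the difference were lost without HCC44 DMSO replicate 2. No value here measures the amount of mitochondrial DNA.

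Of 9 transfer RNA modification genes, 1 rose and 1 fell in H1975 and 2 rose and 2 fell in HCC44, against 31.3% and 34.9% of all genes called in either direction. TRNT1, which adds the CCA end to transfer RNAs, fell in H1975 from 41.2 ± 1.72 to 25.8 ± 1.29 CPM (log2 fold change -0.67, edgeR adjusted p = 0.00182) and was at -0.01 in HCC44, a difference of 0.66 between the lines (edgeR adjusted p = 0.0199). GTPBP3 rose in both lines (0.49 and 0.46, edgeR adjusted p = 0.00198 and 0.00215), and TRMU, its partner in modifying the wobble base, fell in HCC44 (-0.65, 0.0277). Of 6 tested regulators of nuclear genes for mitochondria, 0 were called in H1975, where the medians of the list and of all genes were -0.02 and -0.01, and 2 fell in HCC44. ESRRA, the estrogen-related receptor alpha, fell there from 100.4 ± 5.09 to 62.0 ± 0.781 CPM (-0.69, edgeR adjusted p = 0.000147), and the difference between the lines was -0.51 (edgeR adjusted p = 0.0146). The call of that difference was lost without H1975 DMSO replicate 1, H1975 ACBI1 replicate 1 or HCC44 DMSO replicate 2. Its values ran from -0.58 to -0.45 with each library left out.

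Among proteins of the mitochondrial ribosome, which translates the 13 messenger RNAs, more rose than fell in H1975 and more fell than rose in HCC44. Of 77 tested, 16 rose and 2 fell in H1975 (median 0.11), and 3 rose and 13 fell in HCC44 (median -0.08). Over all genes, 14.6% rose and 16.7% fell in H1975, and 17.5% rose and 17.4% fell in HCC44, so the share of the list that fell in HCC44 is near the background. In the test of the difference 10 were more negative in HCC44 and 0 more positive, against 8.4% of all genes more negative. MRPL24 rose in H1975 from 112 ± 6.73 to 203 ± 15 CPM (log2 fold change 0.86, edgeR adjusted p = 0.000112) and was at 0.09 in HCC44, a difference of -0.78 (edgeR adjusted p = 0.00321). MRPL34 rose in H1975 (0.60, edgeR adjusted p = 0.0016) and HCC44 (0.34, 0.0254). MRPL16 fell in H1975 (-0.34, edgeR adjusted p = 0.0307) and HCC44 (-0.49, 0.0045), and MRPL2 fell in HCC44 (-0.69, 0.0229). The MRPL16 call in H1975 was lost with DESeq2, upper-quartile factors and library totals, among others, with values of -0.40 to -0.14 over the alternatives.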

How the data were processed

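RNA of 8 libraries was counted per gene. The authors deposited 1 table of raw read counts per library, with 61228 gene rows and 5 summary rows. Per the submitters' processing notes, TopHat2 2.1.1, HTSeq 0.11.0 and hg38 were used, and the annotation release and strand setting are not given in the sources used here. Per the labels' protocols, total RNA was extracted and libraries were made with a NEBNext Ultra II DNA kit. The summary rows, 14.3 to 15.8% of each table, entered neither library sizes nor tests.

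From these counts, edgeR 4.0.16 (R 4.3.3) computed TMM factors, CPM on the scaled library sizes and a filter (filterByExpr by group) that kept 21307 genes. A single quasi-likelihood model with robust dispersion and a mean per group was fitted to the 8 libraries, with 4 residual degrees of freedom. Its two-sided F-test was used for ACBI1 against DMSO in each line, for how that change differed between the lines (HCC44 minus H1975) and for HCC44 against H1975 with DMSO. A gene was called at an adjusted p under 0.05 (Benjamini-Hochberg, over all genes), and the standard error was the size of the log2 fold change divided by the square root of F. Pooling the groups assumes that they vary alike. Within each group the replicates were farther apart than sampling noise (chi-square per degree of freedom 21.7 to 43.5). The script was tested on simulated data.

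The 37 symbols matched GENCODE release 29 (GRCh38), which gave positions, lengths and sequences; overlaps came from bedtools 2.31.1. Figures were drawn with matplotlib 3.10.9 and tables built with pandas 2.3.3. The members, gene lists and naming rule were chosen with earlier results of these data known. From each nuclear list the text names the called gene with the largest rise and the largest fall in each line, among genes whose mean reached 5 CPM in a group. Alternatives were DESeq2 1.42.0, other scalings, filters and dispersion, each line alone, a replicate block and leaving out each library.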

Additional observations from a re-analysis of the deposited data

Results flagged for a closer look

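The change with ACBI1 differed between the lines, HCC44 minus H1975 on the log2 scale, for 3 mitochondrial messenger RNAs and 4 of the genes named from the nuclear lists for mitochondrial function. The difference was 1.05 for MT-CO3, 0.76 for MT-ATP6 and 0.74 for MT-ATP8. It was 0.66 for TRNT1, -0.55 for DGUOK, -0.51 for ESRRA and -0.78 for MRPL24. Each of these 7 passed edgeR's test of the difference with an adjusted p of 0.00321 to 0.047 over all genes. That test called 3 of the 27 mitochondrial genes, against 18.6% of all genes tested. The 4 nuclear genes had been named for a large called change in 1 line of these same data. Other members of the lists passed as well, such as MRPS33 (-0.98, edgeR adjusted p = 0.000791). Of the cell type markers, COL1A1 (3.04), CDH5 (-2.82) and VWF (-2.46) passed that test as well, as did the epithelial markers KRT18 (1.4), EPCAM (0.99) and KRT8 (0.56). MT-ATP6 and MT-ATP8 share a precursor and the same libraries and are not separate cases. MT-CO3 and MRPL24 were called under all 17 alternatives, and MT-ATP6 and MT-ATP8 under 7. H1975 DMSO replicate 1, the library with the most mitochondrial RNA, enters every one of these differences.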

How the results depend on the processing

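The number of mitochondrial genes called moved with the settings. The percent of all genes called under the same setting follows each count in parentheses. In H1975, 6 were called (31.3%), against 3 with upper-quartile factors (31.4%), 1 with library totals (35.2%), 12 with no filter (20%), 17 with a replicate block (42.7%) and 1 to 13 with each library left out (16.5 to 32%). In HCC44, 0 were called (34.9%), against 2 when each line was fitted alone (38%), 4 with the replicate block (44.7%), risen in both fits, and 0 to 1 with each library left out (22.1 to 32.9%). For the difference between the lines, 3 were called (18.6%), against 5 with DESeq2 (23.7%), 1 with upper-quartile factors (18.9%), 1 with library totals (20%), 1 with scaling without the MT- genes (18.7%), 7 with no filter (13.2%), 1 with a filter at 1 CPM in 2 libraries (25.1%), 13 with the replicate block (29.8%) and 1 to 10 with each library left out (10.5 to 18.5%). Between the untreated lines, 4 were called (67.9%), against 8 with the replicate block (73.8%) and 2 to 9 with each library left out (57.7 to 66.6%). MT-CYB reversed there, from -0.01 to 0.37 without H1975 DMSO replicate 1, and the median over the 27 genes moved from -0.03 to 0.39. The cause of these changes was not tested, apart from the fewer libraries. Library totals moved the median of all genes in H1975 by 0.19 on the log2 scale, and the mitochondrial median was then -0.26.

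The labels do not say whether same-numbered replicates were paired. Deviations of same-numbered libraries correlated at 0.374 in H1975 and 0.109 in HCC44 over all genes, with 2 pairs each. The share of gene counts was 5.89% in HCC44 with DMSO and 6.27% with ACBI1 when summary rows entered the denominator. Without the ribosomal RNAs it was 5.11% in H1975 with ACBI1, 5.62% in HCC44 with DMSO and 6.08% with ACBI1. Leaving out a library gives the share of the other, 6.06 to 9.02% in H1975 with DMSO. Depth limits the transfer RNAs, with 634 to 1729 counts per library.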
